A study of Mus musculus with 36 samples.

Results

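The 10 genes described here flank *Thrb*, the gene of thyroid hormone receptor beta, on mouse chromosome 14. They are *Oxsm*, *Ngly1*, *Top2b* and *Rarb* on the side of lower coordinates and *Nr1d2*, *Rpl15*, *Nkiras1*, *Ube2e1*, *Ube2e2* and *Nid2* on the side of higher coordinates. They were chosen by position and name, as protein-coding neighbours with at least 100 counts summed over the libraries. Earlier results of these data were known at that choice. The members make up 10 of the 17994 genes tested. Of the 15 protein-coding genes annotated from *Oxsm* to *Nid2*, 11 passed this minimum, namely these 10 and *Thrb*, and the other 4 had at most 42 counts each. Livers of adult male mice of the B6.129S1-Thrbtm1Df line, bred with C57Bl/6NCrl mice, were compared between 18 heterozygous THRB+/- controls (THRBWT) and 18 homozygous THRB-/- knockouts (THRBKO). The mice lived in 12 h of light and 12 h of darkness on regular chow, and 3 mice per genotype were sampled at ZT2 and every 4 h from then until ZT22 (ZT, zeitgeber time, with lights on at its start).

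Both genotypes carry the altered allele, the controls on 1 chromosome and the knockouts on 2. The allele impairs DNA binding by the receptor, was made in cells of a 129 mouse strain, and is carried in every cell type and from conception. Genes close to a targeted locus are inherited together with it, so DNA of the donor strain can remain around the altered allele after crossing to another strain. The strain origin of the flanking DNA and the loss of the receptor itself cannot be told apart in this design. The *Thrb* transcript was still counted in every library, at 28.9 ± 3.69 CPM in THRBWT and 31.5 ± 2.70 CPM in THRBKO mice (SD, n = 18 each; CPM, counts scaled to libraries of equal size), and its level therefore gave no check of the genotype labels.

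The neighbours have unrelated roles. *Nr1d2* encodes REV-ERB beta, a nuclear receptor that represses clock genes in a daily rhythm, and *Rarb* encodes a retinoic acid receptor. *Nkiras1* encodes kappaB-Ras 1, a small GTPase-like protein that restrains NF-kappaB signalling. *Rpl15* encodes a protein of the large ribosomal subunit, *Top2b* a DNA topoisomerase that relieves twisting during transcription, and *Ube2e1* and *Ube2e2* ubiquitin-conjugating enzymes. *Ngly1* encodes the cytosolic enzyme that removes N-linked glycans from misfolded glycoproteins, *Oxsm* a mitochondrial enzyme of fatty acid synthesis, and *Nid2* nidogen 2, which links laminin and collagen IV networks in basement membranes.

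*Rpl15* and *Nkiras1* start next to each other on opposite strands, as do *Oxsm* and *Ngly1*. The stretches shown lie outside annotated exons, directly in front of the first annotated start of *Nkiras1*, of *Ngly1* and of *Nr1d2*. The first lies inside the annotated span of *Rpl15* and the second inside that of *Oxsm*, since these genes also have transcripts that start farther out. They are shown because the annotated starts of the divergent pairs meet there, and because *Nr1d2* is the strongly rhythmic member. They come from RefSeq promoter windows on GRCm38, 250 bases before to 50 after a start, which matched 8 of the 10 genes and not *Nkiras1* or *Nid2*. They lie at chr14:18271068-18271135 (minus strand, 68 bases), chr14:16249175-16249279 (plus strand, 105 bases) and chr14:18239128-18239356 (minus strand, 229 bases), each written 5′ to 3′, with AGGTCA, a half-site of nuclear receptors, in capitals.
Rpl15 and Nkiras1: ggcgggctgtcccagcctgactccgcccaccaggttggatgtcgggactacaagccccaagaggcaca
Oxsm and Ngly1: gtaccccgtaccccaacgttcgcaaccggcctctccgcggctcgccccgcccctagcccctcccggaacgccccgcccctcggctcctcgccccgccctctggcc
Nr1d2: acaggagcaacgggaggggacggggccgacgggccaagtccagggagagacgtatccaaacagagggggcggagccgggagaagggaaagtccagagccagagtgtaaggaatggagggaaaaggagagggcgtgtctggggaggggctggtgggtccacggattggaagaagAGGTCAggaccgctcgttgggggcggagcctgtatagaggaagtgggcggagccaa
Searched on both strands, AGGTCA was found in 3 of the 11 windows of these genes, of *Nr1d2* and *Oxsm*, and in 16.3% of 32851 windows of all genes. The E-box CACGTG and the D-box TTATGTAA were found in 0 of the 11 windows and in 7.15% and 0.938% of all windows. The first stretch holds none of these letters in the shown bases, which says nothing about binding of a factor.

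Total counts ranged from 29063273 to 39913574 in THRBWT and from 31008555 to 42530551 in THRBKO libraries. The counts of a member in a library ranged from 21 to 113 for *Rarb* and from 3389 to 5140 for *Rpl15*, so *Rarb* was measured least precisely. A single library stood apart near the locus, that of THRBKO mouse c at ZT10. Its *Gm3839*, a gene 6.30 Mb away, was at 8.72 CPM, while the other 17 THRBKO mice had 0.421 to 1.22 CPM and the THRBWT mice 4.24 to 11.6 CPM. Results are therefore also given without this mouse where it matters. Its levels of *Rpl15* (120.2 CPM) and *Nkiras1* (39.9 CPM) lay inside the range of the other THRBKO mice.

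Of the 10 genes, 3 passed the threshold for a difference between genotypes, *Nkiras1* upward and *Rpl15* and *Nid2* downward, and the call of *Rpl15* was lost when near-identical copies were counted with it. Over all 17994 genes, 171 or 0.950% did so (adjusted p under 0.05, edgeR's quasi-likelihood test with sampling time in the model and Benjamini-Hochberg adjustment over all genes). The median log2 fold change (THRBKO over THRBWT) was -0.02 over the 10 genes and -0.00112 over all genes. An unadjusted p under 0.05 was found for 6 of the 10 genes, and for 2169 of all genes. DESeq2's likelihood ratio test called 3 of the 10 as well. The called genes all lie on the side of higher coordinates, next to genes that were not called.

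**Figure D1:**
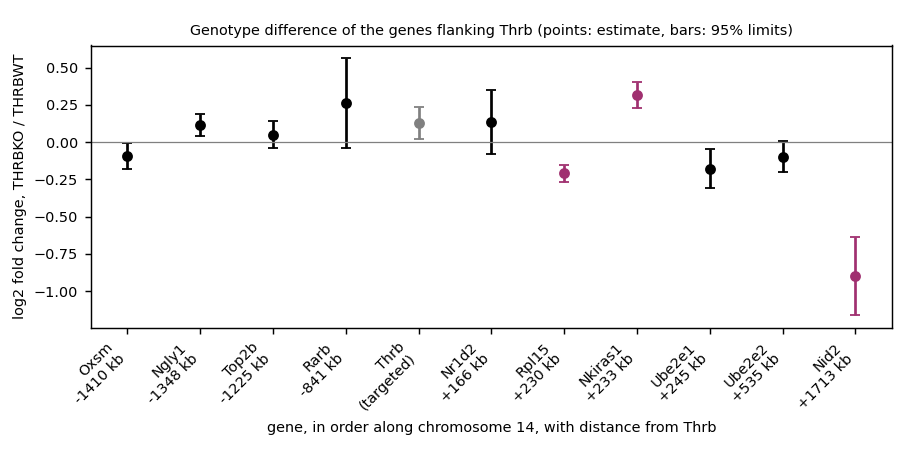
Log2 fold change of THRBKO over THRBWT livers (y axis) for the 10 genes and *Thrb* (grey) in their order along chromosome 14 (x axis, with distance from *Thrb* in kb), with 95% limits from edgeR over 36 mice. *Nkiras1*, *Rpl15* and *Nid2* (purple) passed the threshold, *Rpl15* only as counted without its near-identical copies, and the limits of *Nid2*, from -1.16 to -0.63, are the farthest from 0.

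*Nkiras1* (chr14:18271136-18284003, plus strand, 233 kb from *Thrb*) rose in THRBKO livers. The THRBWT mice had a lowest level of 27.5, a median of 31.4 and a highest of 37.0 CPM, and the THRBKO mice 32.4, 39.8 and 46.2 CPM. Only 4 THRBKO mice lay inside the THRBWT range. The means were 31.6 ± 3.01 and 39.4 ± 3.38 CPM (SD, n = 18 each), and the log2 fold change was 0.32 (standard error 0.042, 95% limits 0.23 to 0.40, edgeR adjusted p = 1.2e-05), which is 24.5% higher. The mean was higher in THRBKO mice at 6 of 6 sampling times, and all 3 THRBKO mice were above all 3 THRBWT mice at 5 of them. The exception was ZT22, where THRBKO mice had 38.9, 32.4 and 40.1 CPM and THRBWT mice 34.9, 28.2 and 34.3 CPM. Separation of this kind in the same direction at 4 or more times was seen for 62 genes, or 0.345% of all tested.

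The regulators and factors around kappaB-Ras did not pass the test. Of 12 genes of the NF-kappaB pathway, among them the paralog *Nkiras2*, the inhibitor *Nfkbia* and the subunit *Rela*, 0 were called by edgeR, with a median log2 fold change of 0.03, and 1 had an unadjusted p under 0.05. That gene, chosen here after its values were seen, was *Chuk*, which encodes a kinase of the pathway, with a log2 fold change of 0.11 (standard error 0.028, edgeR adjusted p = 0.0527), and DESeq2's likelihood ratio test called it. *Nkiras2* itself was at 19.6 ± 2.73 CPM in THRBWT and 19.2 ± 2.70 CPM in THRBKO mice (SD, n = 18 each).

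*Rpl15* (chr14:18267823-18271391, minus strand, 229.7 kb from *Thrb*) had fewer reads in THRBKO livers. The lowest, median and highest level were 127.5, 137 and 147 CPM in THRBWT and 106, 119 and 133 CPM in THRBKO mice. A single THRBKO mouse, at ZT18, lay inside the THRBWT range. The means were 137 ± 6.66 and 119 ± 5.82 CPM (SD, n = 18 each), and the log2 fold change was -0.21 (standard error 0.027, 95% limits -0.27 to -0.15, edgeR adjusted p = 1.0e-05). All 3 THRBKO mice were below all 3 THRBWT mice at 5 of 6 sampling times. At ZT10, for example, they had 109.6, 113.8 and 120.2 CPM against 128.6, 132.2 and 139.5 CPM, while at ZT18 the ranges overlapped.

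This fall does not hold once near-identical copies of *Rpl15* are counted with it. The annotation holds 15 processed pseudogenes of *Rpl15*, on other chromosomes, whose transcripts are at least 95% identical to *Rpl15* over at least 50% of their length, and 6 of them had enough counts to be tested. Of these 6, 4 were called higher in THRBKO livers and 0 lower (these copies were looked for after the values of *Rpl15* were seen). *Gm10020* on chromosome 15 had a mean of 11.7 ± 0.941 CPM in THRBWT and 24.4 ± 1.47 CPM in THRBKO mice (SD, n = 18 each), and it rose by a log2 fold change of 1.06 (standard error 0.034, edgeR adjusted p = 1.8e-22). Its highest THRBWT mouse had 13.0 CPM and its lowest THRBKO mouse 21.4 CPM, so the groups did not overlap. *Rpl15-ps2* and *Rpl15-ps3* on chromosome 9 rose by log2 fold changes of 0.97 (standard error 0.076, edgeR adjusted p = 7.1e-11) and 0.77 (standard error 0.072, edgeR adjusted p = 7.0e-09). *Gm4294* on chromosome 12 had 8.51 ± 1.21 and 11.9 ± 1.24 CPM (SD, n = 18 each) and rose by a log2 fold change of 0.49 (edgeR adjusted p = 7.3e-07).

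Summed, the 15 copies had 26.4 ± 2.67 CPM in THRBWT and 47.1 ± 2.69 CPM in THRBKO mice (SD, n = 18 each), with highest and lowest values of 30.9 and 42.1 CPM that left a gap between the groups. The copies were 20.7 CPM higher in THRBKO mice, while *Rpl15* itself dropped by 18.6 CPM. Counted together, *Rpl15* and its copies had 164 ± 8.83 and 166 ± 7.89 CPM (SD, n = 18 each). Their log2 fold change was 0.02 (standard error 0.028, 95% limits -0.04 to 0.07, edgeR adjusted p = 0.854). The copies held 16.1 ± 0.974% of the summed reads in THRBWT and 28.4 ± 0.868% in THRBKO mice (SD, n = 18 each). Whether RNA levels or the assignment of reads differed between genotypes was not tested. The sources used here do not give how reads with several matches were counted.

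**Figure D2:**
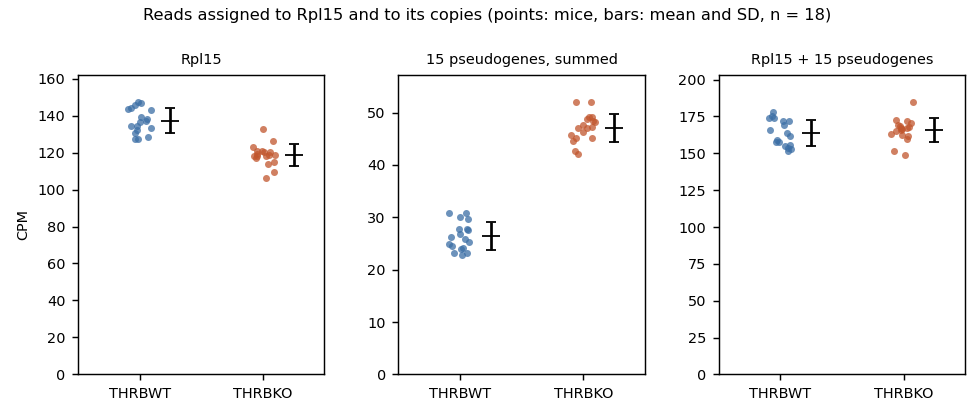
CPM (y axes, from 0) of *Rpl15*, of its 15 near-identical pseudogenes summed, and of both together, in 18 THRBWT and 18 THRBKO mice (points; bars, mean and SD). *Rpl15* is lower and the pseudogenes are higher in THRBKO mice, and the sums, 164 and 166 CPM on average, overlap.

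The other ribosomal protein genes serve as a comparison. Of 76 other cytosolic ribosomal protein genes, 0 were called by edgeR or by DESeq2's likelihood ratio test. An unadjusted p under 0.05 was found for 18 of them, against 2169 of all 17994 genes. Their median log2 fold change was -0.09, against -0.00112 over all genes. Of the 76, 1 had a lower log2 fold change, -0.89, than *Rpl15* counted without its copies. By the same rule *Ube2e1* and *Nr1d2* have near-identical processed pseudogenes too. For *Ube2e1*, the copy *Gm12722* had 10 counts over all THRBWT and 9 over all THRBKO libraries, and the copy of *Nr1d2* was not analysed here.

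*Nid2* (chr14:19751265-19811787, plus strand, 1713 kb from *Thrb*) showed the largest fold change of the 10 genes. THRBWT mice had a lowest level of 3.42, a median of 5.96 and a highest of 12.1 CPM, and THRBKO mice 2.07, 3.48 and 6.83 CPM. The means were 6.70 ± 2.48 and 3.51 ± 1.20 CPM (SD, n = 18 each), and the log2 fold change was -0.90 (standard error 0.129, 95% limits -1.16 to -0.63, edgeR adjusted p = 5.4e-05), so it fell by 46.3%. All 3 THRBKO mice were below all 3 THRBWT mice at 5 of 6 sampling times. At ZT22 they had 3.56, 3.74 and 6.83 CPM against 7.93, 9.49 and 12.1 CPM. At ZT10 the ranges overlapped, with 2.39, 2.83 and 4.87 CPM in THRBKO mice a, b and c against 4.21, 5.25 and 3.42 CPM in THRBWT mice. The highest of these, 4.87 CPM, belongs to the mouse that stood apart for *Gm3839*, and without that mouse the log2 fold change of *Nid2* was -0.96 (edgeR adjusted p = 4.0e-06).

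Other basement membrane genes did not pass the test. Of 16 such genes, 0 were called by edgeR or DESeq2's likelihood ratio test, and 0 had an unadjusted p under 0.05, with a median log2 fold change of -0.01. The paralog *Nid1* was at 9.65 ± 2.20 CPM in THRBWT and 9.78 ± 2.14 CPM in THRBKO mice (SD, n = 18 each), with 0.01 as its log2 fold change. In whole liver, fewer cells of a type and less RNA per cell cannot be told apart. Markers of the cell types that could carry *Nid2* did not pass the test either. The summed level of 10 stellate cell and fibroblast markers ranged from 196 to 465 CPM in THRBWT and from 270.5 to 523 CPM in THRBKO mice, that of 7 sinusoidal endothelial markers from 92.7 to 203 and from 120.1 to 225 CPM, and none of their markers was at 0. That of 5 cholangiocyte markers was 45.2 ± 8.83 CPM in THRBWT and 38.9 ± 6.26 CPM in THRBKO mice (SD, n = 18 each). All 5 were lower in THRBKO mice, with log2 fold changes from -0.22 to -0.11, 0 called and 2 at an unadjusted p under 0.05. The part of these cells in the result was not tested. *Nid2* shares 437 bases of its annotated span with *Rtraf* on the opposite strand, which was at 62.5 ± 5.04 and 59.3 ± 3.99 CPM (SD, n = 18 each; edgeR adjusted p = 0.436).

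*Nid2* also differed between sampling times in THRBWT livers (edgeR adjusted p = 0.0104 over 6 times), with a mean of 4.29 ± 0.919 CPM at ZT10 and 9.83 ± 2.09 CPM at ZT22 (SD, n = 3 each). In THRBKO livers the time test gave an adjusted p of 0.48, with 3.36 ± 1.32 CPM at ZT10 and 4.71 ± 1.84 CPM at ZT22 (SD, n = 3 each). The difference between the genotypes in their time course did not pass the interaction test (edgeR unadjusted p = 0.411). The time call in THRBWT livers was lost without the mice of letter b (adjusted p = 0.06) or c (adjusted p = 0.328).

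*Nr1d2* (chr14:18204054-18239127, minus strand, 166 kb from *Thrb*), the closest of the 10 to *Thrb*, followed a strong daily rhythm in both genotypes. At ZT10 the THRBWT mice had 80.6, 100.9 and 90.9 CPM and the THRBKO mice 104, 109.7 and 107 CPM. At ZT22 the THRBWT mice had 9.16, 5.69 and 6.15 CPM and the THRBKO mice 11.3, 9.92 and 4.71 CPM. The highest mean, at ZT10, was 13.0 times the lowest, at ZT22, in THRBWT and 12.4 times in THRBKO livers (time effect, edgeR adjusted p = 2.5e-07 and 7.0e-07). A cosine of 24 h placed its peak at ZT8.94 (standard error 0.31 h) in THRBWT and ZT9.61 (standard error 0.33 h) in THRBKO livers, a difference of 0.67 h with 95% limits from -0.25 to 1.59 h. The amplitude on the log2 scale was 1.81 and 1.74, a difference of -0.08 with limits from -0.51 to 0.35. The level over all times had a log2 fold change of 0.14 (95% limits -0.08 to 0.35, edgeR adjusted p = 0.664), and the THRBKO mice were above all THRBWT mice at ZT10 only.

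Its partners in the clock were rhythmic too. Of 18 clock genes, 17 differed between times in THRBWT and 17 in THRBKO livers, and 0 differed between genotypes by edgeR or DESeq2's likelihood ratio test, with 0 at an unadjusted p under 0.05. The paralog *Nr1d1*, REV-ERB alpha, had a log2 fold change of 0.08 (edgeR adjusted p = 0.868). *Ube2e2* (chr14:18573575-18894267, minus strand, 535 kb from *Thrb*) was the other member with a time effect in both genotypes. Its mean went from 16.7 ± 0.372 CPM at ZT6 to 10.6 ± 1.28 CPM at ZT18 in THRBWT livers, and from 14.9 ± 1.65 CPM at ZT10 to 9.71 ± 1.35 CPM at ZT22 in THRBKO livers (SD, n = 3 each). The time effect had an edgeR adjusted p of 0.00015 in THRBWT and 0.0429 in THRBKO livers. Without the THRBKO mouse that stood apart the second became 0.0907, and with letter a, b or c dropped from the fit it became 0.198, 0.206 or 0.148. Its peak lay at ZT6.49 (standard error 0.55 h) and ZT7.79 (standard error 0.64 h), a difference of 1.30 h with 95% limits from -0.43 to 3.03 h.

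Over all genes the time effect was called for 22.2% in THRBWT and 20.4% in THRBKO livers, against 3 and 2 of the 10 genes. A difference of the genotype effect between times (interaction) was called for 0 of the 10 genes and for 0% of all genes by edgeR, and for 0 genes by DESeq2's likelihood ratio test. An unadjusted p under 0.05 was found for 0 of the 10 and for 484 of all genes. At single times, edgeR called 0 of the 60 tests of these genes at an adjusted p under 0.05. The share of all genes called at that threshold was 0.0278% at ZT2, 0.0111% at ZT6 and 0.0167% at ZT10. It was 0.0167% at ZT14, 0.0222% at ZT18 and 0.0222% at ZT22. Of the 60 tests, 18 had an unadjusted p under 0.05, 6 higher and 12 lower in THRBKO mice. Most of these were tests of *Nkiras1*, *Nid2* and *Rpl15*, the last counted without its copies. The share of all genes with such an unadjusted p at single times was not counted. With 3 mice against 3, an exact two-sided permutation test cannot give a p below 0.1.

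**Figure D3:**
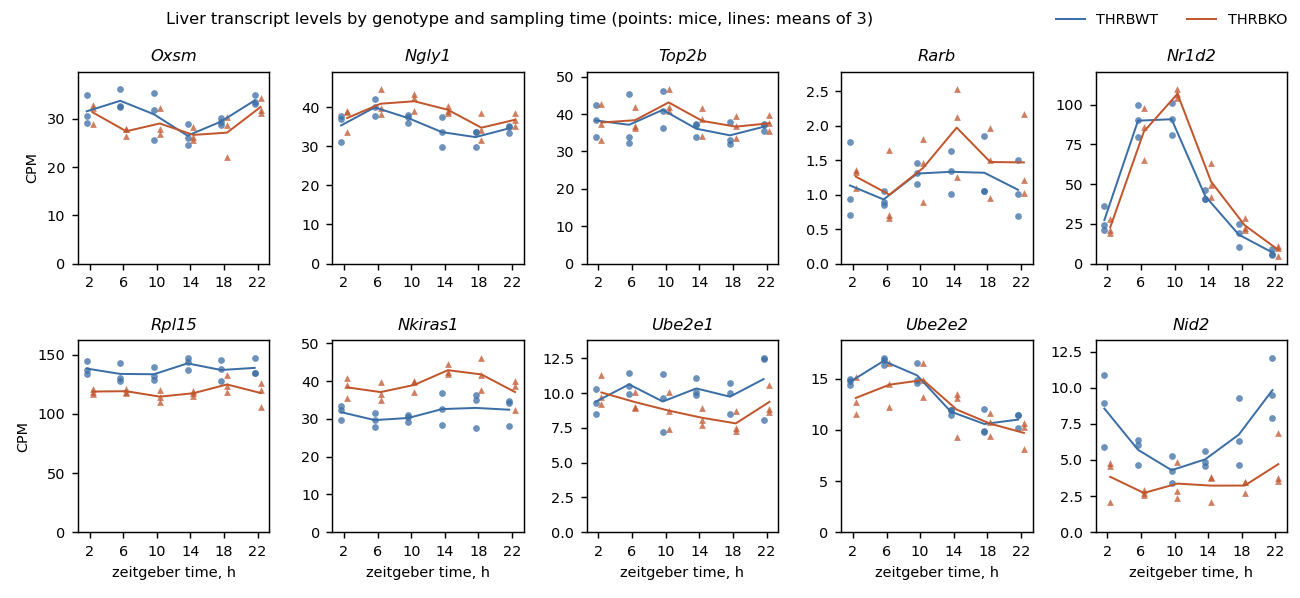
CPM (y axes, from 0) of the 10 genes against zeitgeber time (x axes, hours) in THRBWT (blue circles) and THRBKO mice (orange triangles), with lines through the means of 3 mice. *Nkiras1* lies higher and *Nid2* and *Rpl15* (counted without its copies) lie lower in THRBKO mice at most times. *Nr1d2* has its highest mean at ZT10 in both genotypes.

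*Ube2e1* (chr14:18282722-18331859, minus strand, 245 kb from *Thrb*), which overlaps *Nkiras1* by 1282 bases on the opposite strand, had 10.1 ± 1.44 CPM in THRBWT and 8.92 ± 1.11 CPM in THRBKO mice (SD, n = 18 each). Its log2 fold change of -0.18 (95% limits -0.31 to -0.05) had an edgeR adjusted p of 0.212. *Ube2e2* had 13.4 ± 2.49 and 12.5 ± 2.46 CPM (SD, n = 18 each; log2 fold change -0.10, 95% limits -0.20 to 0.01, edgeR adjusted p = 0.471). Their paralog on another chromosome, *Ube2e3*, had a log2 fold change of 0.03 (edgeR adjusted p = 0.749). Of 10 ubiquitin-conjugating enzymes listed beside them, 0 were called by edgeR or DESeq2's likelihood ratio test, and 1 had an unadjusted p under 0.05.

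On the side of lower coordinates, 0 of 4 genes were called. *Ngly1* (chr14:16249280-16311926, plus strand, 1348 kb from *Thrb*) had a lowest, median and highest level of 29.7, 35.6 and 42.1 CPM in THRBWT and 31.7, 38.6 and 44.5 CPM in THRBKO mice. Its log2 fold change of 0.11 (95% limits 0.04 to 0.19) had an edgeR adjusted p of 0.122. The mean was higher in THRBKO mice at 6 of 6 times, with ranges apart at ZT10 and ZT14. How many of all genes differ by as much in this way was not counted. *Oxsm* (chr14:16238652-16249808, minus strand, 1410.5 kb from *Thrb*) had 31.0 ± 3.46 and 29.0 ± 3.07 CPM (SD, n = 18 each; log2 fold change -0.09, 95% limits -0.18 to -0.01, edgeR adjusted p = 0.366). *Top2b* (chr14:16365179-16435462, plus strand, 1225 kb from *Thrb*) had 37.3 ± 4.17 and 38.6 ± 3.60 CPM (SD, n = 18 each; log2 fold change 0.05, 95% limits -0.04 to 0.14, edgeR adjusted p = 0.711). *Rarb* (chr14:16430839-16819156, minus strand, 841 kb from *Thrb*) had 1.18 ± 0.346 and 1.43 ± 0.529 CPM (SD, n = 18 each), and its wide limits, -0.04 to 0.56 around a log2 fold change of 0.26, go with its low counts (edgeR adjusted p = 0.50).

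The pathways of these genes were without a call by edgeR in the fit with time and genotype. Among 13 tested genes of retinoid signalling, 16 of glycoprotein clearance, 8 of mitochondrial fatty acid synthesis and 7 DNA topoisomerases and their repair enzymes, edgeR and DESeq2's likelihood ratio test called 0 in each. Over all pathway lists together, edgeR called 0 of 100 distinct genes, 6 had an unadjusted p under 0.05, and DESeq2 called 1, *Chuk*. With a replicate block of time and letter, edgeR called 3 of them, 2 of glycoprotein clearance and *Chuk* of the NF-kappaB pathway. The paralogs on other chromosomes (*Thra*, *Nr1d1*, *Rara*, *Rarg*, *Top2a*, *Ube2e3*, *Nkiras2* and *Nid1*) had log2 fold changes from -0.07 to 0.08, 0 of 8 were called by edgeR or by DESeq2's likelihood ratio test, and 0 had an unadjusted p under 0.05.

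Neighbours that start together can be compared within each library. The ratio of *Rpl15* to *Nkiras1* reads had a lowest, median and highest value of 3.64, 4.40 and 5.02 in THRBWT and 2.68, 3.04 and 3.39 in THRBKO mice, so the groups did not overlap. *Rpl15* and *Nkiras1* were already called in opposite directions, so this separation adds no result to those calls. The ratio takes *Rpl15* without its copies. With them it was 4.38, 5.20 and 6.02 in THRBWT and 3.78, 4.22 and 4.76 in THRBKO mice, with overlap. The ratio of *Oxsm* to *Ngly1* was 0.673, 0.893 and 1.002 in THRBWT and 0.594, 0.739 and 0.96 in THRBKO mice, with overlap. The libraries do not mark the strand of a transcript, and these genes share 256 (*Rpl15* and *Nkiras1*), 529 (*Oxsm* and *Ngly1*) and 4624 bases (*Top2b* and *Rarb*) of their annotated spans, so reads from shared stretches cannot be told apart.

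Per kilobase of annotated exons, *Rpl15* had the highest level, with a median of 51.6 CPM per kb over the 36 libraries. It was followed by *Oxsm* (7.23), *Nr1d2* (7.11) and *Nkiras1* (6.42), then by *Ngly1* (4.98), *Ube2e2* (2.70), *Top2b* (2.55), *Ube2e1* (2.12), *Nid2* (0.896) and *Rarb* (0.235), all as median CPM per kb. *Rpl15* was above *Oxsm* and *Ube2e1* above *Nid2* in 36 of 36 libraries. *Oxsm* and *Nr1d2* are not ordered, since *Oxsm* was higher in 18 of 36 libraries and *Nr1d2* ranged from 0.871 to 20.3 CPM per kb. The order of *Oxsm* and *Nkiras1* by mean was not the same in both genotypes, with 7.52 and 5.76 CPM per kb in THRBWT and 7.04 and 7.17 CPM per kb in THRBKO mice. *Ube2e2* and *Top2b* are not well ordered either, with *Ube2e2* higher in 20 of 36 libraries.

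The genes most like each member over the 36 libraries, among 12641 genes with a mean of at least 1 CPM, were found by Pearson's r of log2 CPM, a description in which libraries share genotype, time and depth. *Nr1d2* was most like *Abcg5* (r = 0.935), *Klhl21* (r = 0.92) and *March5* (r = 0.908), and *Ube2e2* most like *Abtb1* (r = 0.888), *Prpsap1* (r = 0.867) and *Mrps9* (r = 0.857). *Nkiras1* was most like *Gm4294* (r = 0.801), *Rpl15-ps2* (r = 0.783) and *Gm10020* (r = 0.78), which are all copies of its neighbour *Rpl15*. *Rpl15* was most like *Wdr18* (r = 0.786), *Dio1* (r = 0.767) and *Rpl12* (r = 0.761). *Nid2* was most like *Msh5* (r = 0.71), *Gm3839* (r = 0.662) and *Endod1* (r = 0.658). For *Oxsm* r was 0.76 with *Tmem8b* and 0.73 with *Mettl15*, and the highest r for *Ngly1* were 0.828 (*Nudt12*), 0.826 (*Cul3*) and 0.816 (*Pnpla8*). For *Top2b* they were 0.73 (*Slc6a6*), 0.713 (*Tjp1*) and 0.71 (*Gm4788*), and for *Rarb* 0.732 (*Enpep*), 0.706 (*Nfic*) and 0.673 (*Ccdc47*). For *Ube2e1* they were 0.709 (*Gm49463*), 0.69 (*Uba1*) and 0.68 (*Cpn2*).

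A wider window around the locus holds further called genes. Within 20 Mb of *Thrb*, 10 of 197 tested genes or 5.08% were called, against 161 of 17796 other genes or 0.905%. Within 2 Mb it was 3 of 18, all of them members on the side of higher coordinates, with *Rpl15* as counted without its copies. The other 7 of the 10 called genes are not members. From 2 to 10 Mb, the called genes lay on the side of lower coordinates, 1 of 7 from 2 to 5 Mb and 5 of 18 from 5 to 10 Mb, while 0 of 36 and 0 of 29 were called on the other side. *Il3ra* lies 3.30 Mb away and rose by a log2 fold change of 0.41 (edgeR adjusted p = 0.0101), and *Gm3839* fell by 2.97 on the log2 scale (edgeR adjusted p = 7.1e-11). *Gm48600*, 5.75 Mb away, fell by 1.93 on the log2 scale (edgeR adjusted p = 0.0063), and *Abhd6*, 9.60 Mb away, by 0.39 (edgeR adjusted p = 0.00029). The genes *4930452B06Rik*, 8.99 Mb away, and *Acox2*, 9.40 Mb away, rose by log2 fold changes of 0.67 and 0.21 (edgeR adjusted p = 0.00014 and 0.0396). The single called gene from 10 to 20 Mb was *Itih3*, 12.9 Mb away, with a log2 fold change of -0.29 (edgeR adjusted p = 0.0476). The THRBKO mouse that stood apart for *Gm3839* also lay outside the range of the other THRBKO mice for 3 of these genes. For *Gm48600* it had 0.269 CPM against at most 0.142, with means near 0 in both genotypes (0.177 and 0.0467 CPM). For *Acox2* it had 186 against at least 197 CPM, inside the THRBWT range of 142 to 262 CPM. For *Itih3* it had 361 against at least 423 CPM, and so lay below the lowest THRBWT mouse (556 CPM) as well.

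**Figure D4:**
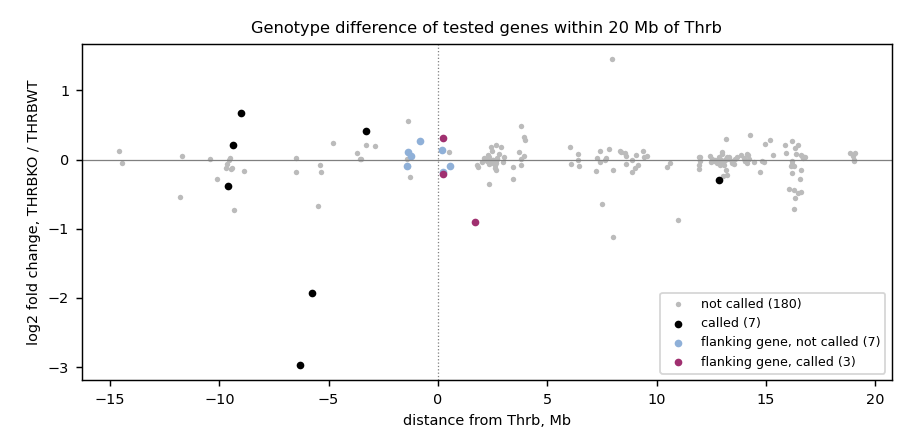
Log2 fold change of THRBKO over THRBWT livers (y axis) against distance from *Thrb* in Mb (x axis) for 197 tested genes, with called genes in black and the 10 flanking genes in blue (not called) or purple (called). The 7 called genes beyond the flanking ones lie mostly on the side of lower coordinates, down to -2.97 for *Gm3839*. *Rpl15* is shown as counted without its copies.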

How the data were processed

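Liver RNA of 36 mice was sequenced from poly-A selected, non-directional libraries. The authors mapped reads to GRCm38 (mm10) with HISAT2 and counted them per gene with featureCounts. They deposited counts of 54532 genes as whole numbers without normalization. Versions, annotation release and the treatment of reads with several matches are not given in the sources used here. The split of reads between a gene and its copies depends on it.

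From these counts, 17994 genes with at least 100 counts summed over 36 libraries were tested by edgeR 4.0.16 (glmQLFit and glmQLFTest, TMM scaling, R 4.3.3), with time and genotype as factors, with their interaction, at single times, and with time alone within a genotype. P-values were adjusted over all genes by the Benjamini-Hochberg procedure (threshold 0.05). DESeq2 1.42.0 (likelihood ratio test) was an alternative. CPM use TMM library sizes, log2 CPM a prior count of 2. Peak times come from a least-squares cosine of 24 h on log2 CPM in Python 3.11.15 (scipy 1.17.1), with limits by the delta method. Near-identical copies were found with BLAST 2.17.0 against GENCODE transcripts (identity of 95% or more, over 50% or more of a copy). Scripts were tested on simulated data.

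The members and lists were chosen with earlier results of these data known. Named are the 10 genes, *Thrb*, their paralogs, called genes within 20 Mb (the 6 nearest on each side), called genes of the pathway lists, and the 3 genes most like each member, of which 1 is not reported here. *Chuk*, the copies of *Rpl15* and *Rtraf* were chosen after their values were seen. Alternatives were DESeq2's size factors and test, other filters on low counts, time left out, each letter of mice left out, a replicate block, other windows, and, added after the data were seen, the THRBKO mouse c at ZT10 left out and *Rpl15* summed with its copies. Mice share letters a, b and c, without a stated pairing. Labels name the mice as separate animals. No library repeated another of its group, the chi-square per gene between them being 32.7 to 136.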

Additional observations from a re-analysis of the deposited data

How the results depend on the processing

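The genotype call held for 3 of the 10 genes under each alternative listed, except that *Rpl15* summed with its copies reversed to a log2 fold change of 0.0185 (adjusted p = 0.854), because reads of the copies are then included. *Nkiras1* ranged from 0.28 to 0.35 (adjusted p up to 0.00262) and *Nid2* from -1.08 to -0.74 (adjusted p up to 0.0412). The number of genes called for genotype was 171, and 306 with DESeq2's likelihood ratio test, 65 with time left out, and 40 to 81 without the mice of a letter. Without the mice of a letter, fewer samples are tested, and the time effect was called for 1277 to 2142 genes in THRBWT and 1104 to 1225 in THRBKO livers, against 4001 and 3674. Among the 10 genes, those with a time effect in THRBKO livers went from 2 to 1 without any letter, and to 1 without THRBKO mouse c at ZT10. Without that mouse, 186 genes were called for genotype, 3011 for time in THRBKO livers and 12 within 20 Mb. Genes called within 20 Mb were 12 with DESeq2's likelihood ratio test, 12 with the replicate block and 5 to 8 without a letter. The narrower window of 5 Mb held 4. The cause of the other changes was not tested. The peak of *Nr1d2* ranged from ZT8.77 to ZT9.06 in THRBWT and from ZT9.43 to ZT9.81 in THRBKO livers over the alternatives. Depth limits *Rarb*, with as few as 21 counts in a library.

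A replicate block of time and letter gave 387 genes called for genotype, with 3 of the 10 genes. Deviations of same-lettered mice of both genotypes correlated by more than 0.1 in 15 of 18 pairs (median r = 0.284, lowest -0.0944), and 32 of 36 mice were most like the mouse of their own letter. The labels state no shared litter, batch or day for a letter, but the animal numbers in the deposited column names differ by at most 10 in 15 of the 18 pairs. The letters were not used as pairs in the main fit, since not every pair passed 0.1. That fit, which called 171 genes for genotype, therefore leaves out what mice of a letter share.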
